A study of Mus musculus with 12 samples.

Results

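Eomes, Mesp1, Mesp2, Msgn1 and Tbx6 are 5 of the 21887 mouse protein-coding genes in the annotation used, and were chosen by name as transcription factors of early mesoderm. For each gene, every H3K27ac interval and GLI1 site touching the gene or the 50000 bp on either side (mm10) was taken. The windows of Mesp1 and Mesp2 overlap, so the 5 genes occupy 4 loci. The cells were cardiac progenitors differentiated from mouse embryonic stem cells of the GLI1-FTA line, built in A2Lox.cre, and harvested on day 6. Dox cells had received 500 ng/ml doxycycline for 24 hours from day 5, which turns on tagged GLI1, and control cells carried the same transgene without doxycycline. The series held 12 samples in 6 groups of 2 (streptavidin pulldown of GLI1, antibody pulldown of H3K27ac, and input, with and without doxycycline), and the 3 lists used here stand for 6 of them. All cells came from this 1 line and no line without the transgene was among the groups, so effects of doxycycline and of GLI1 cannot be told apart.

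Gastrulating epiblast cells pass through the primitive streak and become mesoderm under Nodal, Wnt and Fgf signals. Eomes, a T-box factor, acts early in this step and activates Mesp1, a basic helix-loop-helix (bHLH) factor that marks the first cells bound for the heart. Mesp2, its close relative, sets the boundaries of somites, while Msgn1, another bHLH factor, and the T-box factor Tbx6 drive presomitic mesoderm. In mesoderm, all 5 are normally expressed for a short time and turned off as the cells differentiate. H3K27ac is a histone acetylation found at active promoters and enhancers, and GLI1 is a transcription factor of the hedgehog pathway.

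The numbers of regions called in 1 condition alone differed in opposite directions at Tbx6 and at the Eomes and Mesp loci, while Msgn1 differed by 1 region. At Eomes, 13 regions were called in control cells alone and 1 in dox cells alone. Around Mesp1 and Mesp2 these numbers were 4 and 1, and at Msgn1 they were 1 and 0. At Tbx6 no region was called in control alone and 8 were called in dox alone. Of all regions in the genome, 27.1% were called in control alone and 35.5% in dox alone. The control-only share was 86.7% at Eomes and 66.7% at the Mesp locus. The dox-only share at Tbx6, 44.4%, was closer to that of all regions, and the dox data were 1.28 times as deep. Most of these calls were weak. A -log10 q of at least 10 was reached by 1 of the 13 control-only regions at Eomes and 1 of the 8 dox-only regions at Tbx6. The length under called intervals was 5596 bp in control and 899 bp in dox at Eomes. It was 4544 and 494 bp at the Mesp locus, 1157 and 753 bp at Msgn1, and 12651 and 19658 bp at Tbx6. None of the windows held a listed GLI1 site, which by the name of the list is a replicated summit with a Gli motif.

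**Figure D1:**
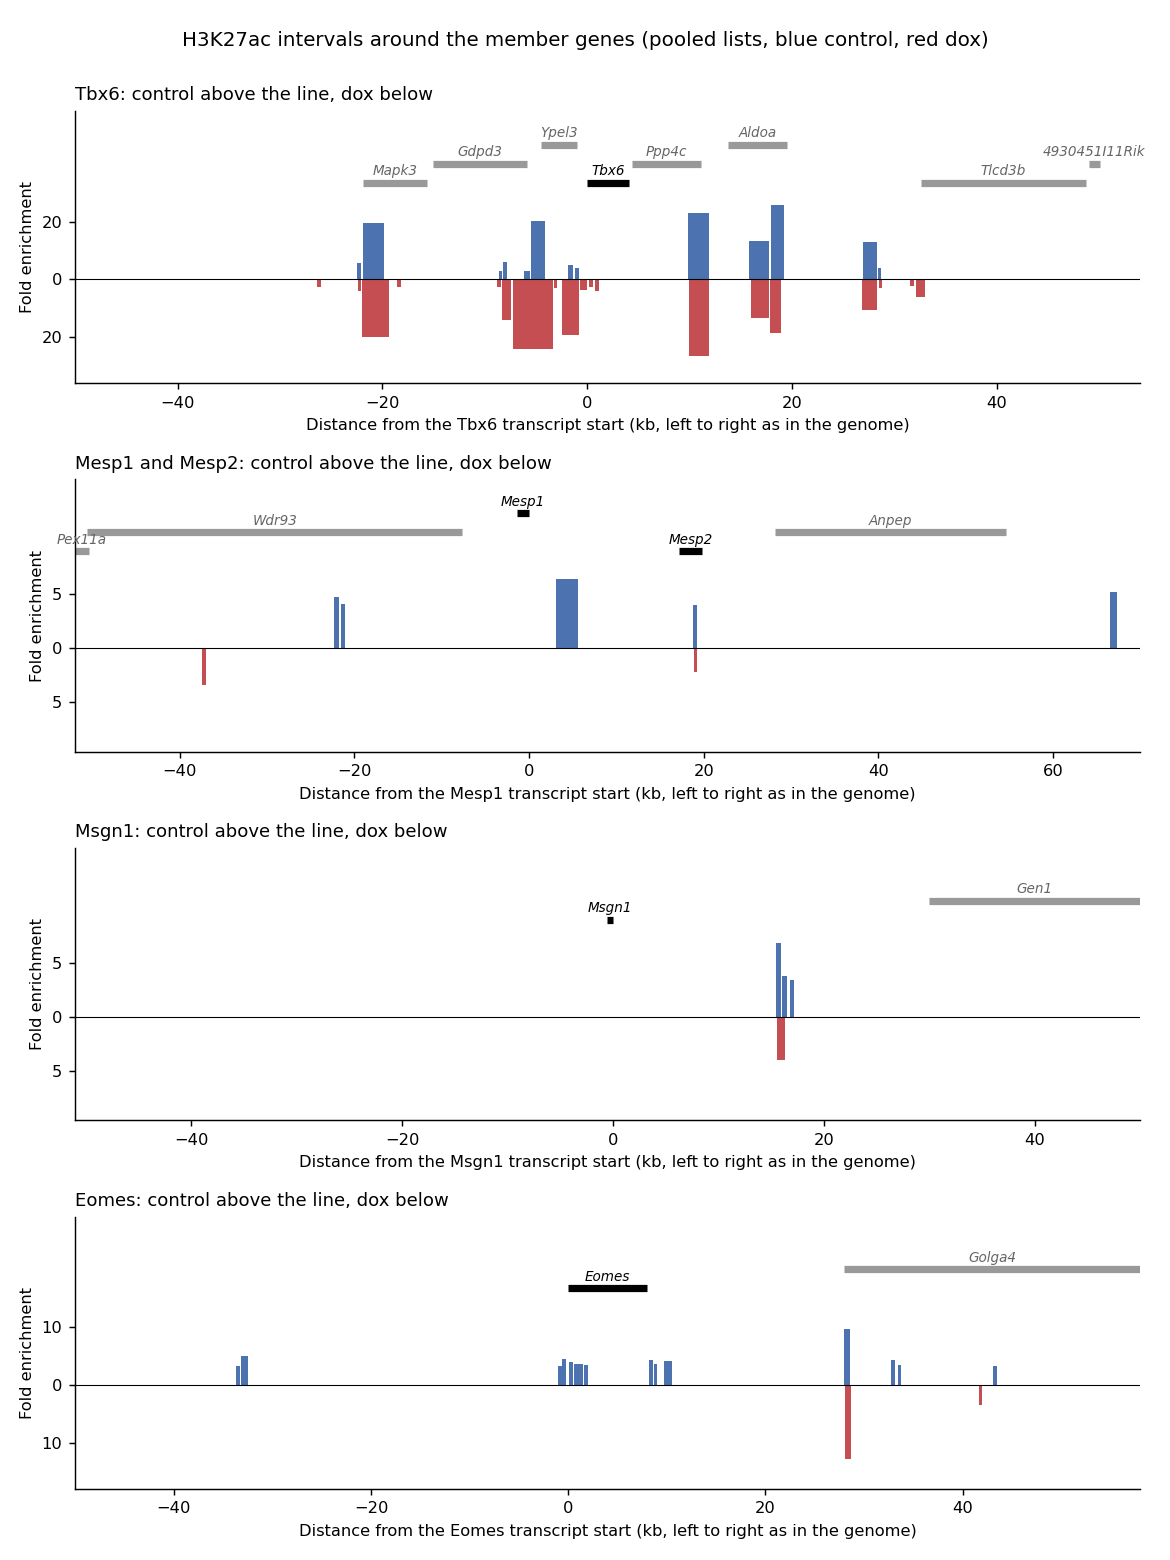
H3K27ac intervals in the windows of Tbx6, Mesp1 with Mesp2, Msgn1 and Eomes: the x axis is the distance from the transcript start in kb, bars above the line are control and bars below are dox intervals, and bar height is the highest fold enrichment in the interval. The narrowest bars are widened to be visible, and grey or black lines mark genes; red bars outnumber blue close to Tbx6, while blue bars stand alone at Eomes.

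Each list was called on the pool of 2 samples, so no spread between replicates, standard error or p-value can be given, and each value below is 1 value per condition. The value of an interval is the authors' fold enrichment, the pileup of reads at its summit over a local background. The lists do not say which samples gave that background. Overlapping intervals of the lists (1 bp or more) were joined into a region, which is shared, dox-only or control-only. For shared regions the log2 ratio of dox to control fold enrichment was taken relative to the genome-wide median of such regions, and a ratio of at least 1 in size (2-fold) is called higher or lower. In bulk material, fewer cells carrying a mark and less of the mark per cell cannot be told apart.

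The control list held 67463 intervals over 59.9 Mb and the dox list 76437 over 66.0 Mb, which merged into 94481 regions; 2605 GLI1 sites were listed. The dox pool was 1.28 times as deep by the background pileups. Among 12 marker genes of cardiac progenitors, 7 had an acetylated gene end in control and 5 in dox. Both lists held 3 of 6 pluripotency markers, while the numbers in control and in dox were 3 and 6 of 6 endothelial and blood markers, 2 and 3 of 5 endoderm markers and 3 and 2 of 5 paraxial markers. Of all genes, 47.9% were called in both lists, 2.21% in control alone and 2.96% in dox alone, so several of these counts were near the share of all genes. Neither list had a region at the ends of Nkx2-5, Gata4, Tbx5, Mef2c or Smarcd3. The part of such markers in the results below was not tested.

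Across the 4 loci, 41 regions were found. Of these, 18 (43.9%) were control-only, against 27.1% of all regions, and 10 (24.4%) were dox-only, against 35.5% of all. Of the 18 control-only regions, 13 came from Eomes alone. The remaining 13 regions were shared, and 2 of them were higher in dox (6.78% of all shared regions were) and 0 lower (8.31% of all). Both higher regions lay upstream of Tbx6. The 13 ratios ran from -0.68 to 2.05 with a median of 0.15, 7 above 0 and 6 below. With pileups in place of fold enrichments the median was -0.26. Pileup ratios, here and below, were scaled for depth and not centred, and without centring the fold enrichments had a median of 0.02.

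A gene end was taken as 1000 bp around either outer end of a gene, and a gene took the highest fold enrichment of the regions touching it. By this measure Tbx6 and Mesp2 were called in both lists, Eomes in control alone, and Mesp1 and Msgn1 in neither. That is 2, 1 and 2 of 5 genes, where 47.9%, 2.21% and 46.9% of all 20376 genes analysed fell in these classes, and 2.96% were called in dox alone. Tbx6 had 5.12 in control and 19.4 in dox, a log2 ratio of 2.05. Mesp2 had 3.95 in control and 2.25 in dox, a ratio of -0.68. Among the 9761 genes measured in both lists the median was 0.14, with 3.77% at 1 or above and 2.05% at -1 or below. Eomes had 4.46 in control and no interval in dox.

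Promoter sequences of 3 members are shown because called acetylation in or near them differed between the conditions. Most of the Tbx6 promoter lay in a dox-only region, and the Eomes promoter lay between 2 control-only regions. The Mesp1 promoter lay in no region, 2838 bp from the nearest, which was control-only. They run 5′ to 3′ from 250 bases before to 50 after the transcript start (RefSeq, GRCm38.p6). The Tbx6 promoter is chr7:126781233-126781532 on the plus strand, the Eomes promoter chr9:118477939-118478238 on the plus strand, and the Mesp1 promoter chr7:79793541-79793840 on the minus strand. Capitals mark the 239 bases of Tbx6 under the dox-only interval, the TATA core TATAA of Eomes, and the T-box core TCACACC of Mesp1.
Tbx6: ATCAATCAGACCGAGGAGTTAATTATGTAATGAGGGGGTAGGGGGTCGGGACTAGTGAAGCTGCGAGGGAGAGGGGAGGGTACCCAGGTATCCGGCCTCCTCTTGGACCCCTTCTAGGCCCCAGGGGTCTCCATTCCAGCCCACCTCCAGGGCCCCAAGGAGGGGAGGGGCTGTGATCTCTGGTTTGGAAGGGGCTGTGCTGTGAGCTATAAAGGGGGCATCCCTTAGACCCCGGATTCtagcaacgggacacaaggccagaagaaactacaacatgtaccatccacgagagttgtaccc
Eomes: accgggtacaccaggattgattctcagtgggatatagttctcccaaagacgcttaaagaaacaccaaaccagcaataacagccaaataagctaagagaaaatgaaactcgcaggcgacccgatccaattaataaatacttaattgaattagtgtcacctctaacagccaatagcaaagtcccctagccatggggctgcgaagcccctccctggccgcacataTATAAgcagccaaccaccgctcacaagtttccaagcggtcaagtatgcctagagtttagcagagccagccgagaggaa
Mesp1: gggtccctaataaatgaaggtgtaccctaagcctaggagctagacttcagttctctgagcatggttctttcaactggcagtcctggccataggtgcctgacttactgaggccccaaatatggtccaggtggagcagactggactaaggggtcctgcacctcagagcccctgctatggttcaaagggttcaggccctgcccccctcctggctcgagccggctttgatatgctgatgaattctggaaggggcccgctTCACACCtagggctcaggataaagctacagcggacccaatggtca

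Both strands of all 5 promoters were searched for 3 short motifs. The GLI core ACCACCC was found in none of the 5 and in 4.58% of the 21263 mouse promoters of this length. The T-box core TCACACC was in Mesp1 alone, 6 bases after the start, and in 3.68% of all. The TATA core TATAA was in Tbx6 at -43, in Eomes at -28, and in 21.9% of all. A match describes the letters and is not a binding site, and 17492 genes are represented in the promoter table.

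Eomes (chr9:118478186-118486132, plus strand) had 15 regions in its window. Within 2000 bp of the gene lay 8 control-only regions and no interval of the dox list. They spread over 11503 bp, from chr9:118477233 to 118488735, and covered 3202 bp. Their fold enrichments were low and close to each other, from 3.26 to 4.46 with a median of 3.82, where the median of all control-only regions was 3.66. The group reached from upstream of the start, through the first part of the gene, to past its 3′ end. Their -log10 q ran from 3.04 to 6.72, so that none of the 8 was left when a value of at least 10 was required, and 1 of the 13 control-only regions of the window was. The region that gave the gene-end value was chr9:118477614-118477920, 266 bp upstream, with a pileup of 18 reads. The next one inside the gene, chr9:118478377-118478576, had 3.98. The promoter printed above sits between these, 18 bp from the first and 138 bp from the second.

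Read depth limits what the missing dox intervals show. The pileups of the 8 regions were 12 to 18 reads, or 15.4 to 23.1 at the depth of the dox pool. The lowest pileup called in the dox list at uniform background was 11 reads, below all 8 scaled values. With 95% counting intervals, which cover counting error only, the lower bound was at or above 11 reads for 3 of the 8 and under it for 5. For those 5, the same signal in dox could have gone uncalled at this depth. The other 3 had lower bounds of 11.7, 12.7 and 13.7 reads, set against the limit at uniform background alone. Their background in dox is unknown, and at dox backgrounds of 6.5 to 7.5 the lowest pileup called was 16 reads. Counting error in dox was not included, so the comparison cannot decide whether these 3 would have been called. Peak numbers ran unbroken through the window in both lists.

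**Figure D2:**
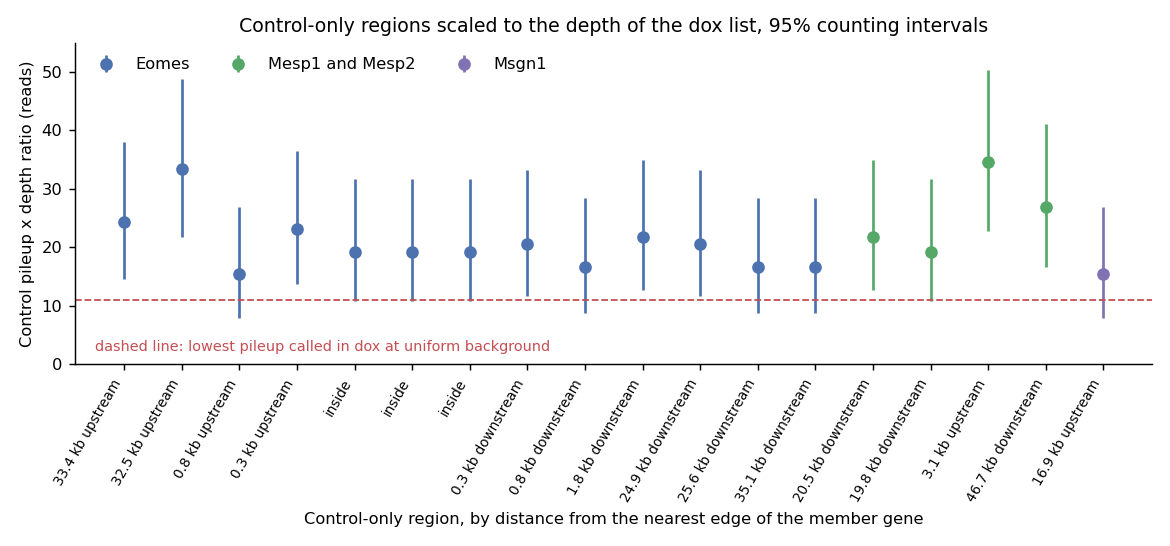
Pileup of each of the 18 control-only regions in reads, multiplied by the depth ratio of the dox to the control pool, with 95% counting intervals; the x axis gives the distance from the member gene (Mesp1, or Mesp2 for the last green point) and colours give the locus. All 18 points lie above the dashed line at 11 reads, the lowest pileup called in dox at uniform background, and 9 of the intervals cross it.

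Farther from Eomes, 5 more regions were control-only, 1 was shared and 1 dox-only. The strongest control-only region was chr9:118445024-118445683, 32503 bp upstream, at 5.05 with 26 reads. Downstream lies Golga4, which encodes a golgin of the Golgi apparatus. Its near end held the only shared region of the window, chr9:118506193-118506850, with 9.66 in control and 12.8 in dox. Its ratio was 0.54, and by pileup (36 and 64 reads) it was 0.47 with an interval from -0.12 to 1.06. Inside Golga4, 3 further regions were control-only, and the only dox-only region of the window, starting at chr9:118519833, had 3.46.

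Control-only regions in such number were uncommon but not unique. A gene window held a median of 1 control-only and 1 dox-only region, and 285 of the analysed genes (1.40%) had 13 control-only regions or more. Within 2000 bp of the gene, 370 genes (1.82%) had as many as Eomes or more, long genes included. Of the 10930 genes no longer than 20000 bp, 3 had at least 8 control-only regions within 2000 bp, Eomes among them. These counts were chosen after the values at Eomes had been seen, and describe them without a test.

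Mesp1 (chr7:79792241-79793590, minus strand) and Mesp2 (chr7:79810727-79813431, plus strand) point away from each other, and the space between them held the strongest region of their locus. This was the control-only region chr7:79796679-79799179, 3089 bp upstream of Mesp1 and 11548 bp upstream of Mesp2. It had a fold enrichment of 6.40, a -log10 q of 14.0 and 27 reads. It was 2501 bp wide, against a median of 316 bp for control-only regions, and 0.22% of these were as wide. A fold enrichment at least as high was found in 6.06% of them. At the depth of the dox pool its pileup corresponds to 34.6 reads, with an interval from 22.8 to 50.4, above the 11 reads called at uniform background and the 16 called in dox at backgrounds of 6.5 to 7.5.

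No region touched the ends of Mesp1 in either list. With the gene end widened to 5000 bp, Mesp1 took the intergenic region and was called in control alone at 6.40. The Mesp2 value did not come from its promoter. It came from chr7:79812436-79812778, a shared region of 343 bp inside the gene near its 3′ end, with summits 1866 bp (control) and 1922 bp (dox) past the start. Its pileups were nearly equal, 18 reads in control and 17 in dox, while the local background was 3.81 and 7.0. By pileup alone the log2 ratio was -0.44, with an interval from -1.40 to 0.52 that included 0. Measured at the transcript start alone, Mesp2 was called in neither list.

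The other regions of the Mesp locus were distant. Inside Wdr93, the gene downstream of Mesp1, 2 were control-only with 4.70 and 4.06 and 1 was dox-only with 3.46. A control-only region at chr7:79860176-79860984, 46745 bp downstream of Mesp2, had 5.16. The 4 control-only regions of this locus therefore ran from 4.06 to 6.40, and their scaled pileups from 19.2 to 34.6 reads.

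Msgn1 (chr12:11208382-11208948, minus strand) had the fewest regions of the 5 genes. Both lay upstream, and no interval of either list was closer than 15418 bp. The shared region chr12:11224366-11225408 had 6.79 in control and 4.00 in dox, a ratio of -0.63, with 25 and 24 reads. By pileup its ratio was -0.42, with an interval from -1.23 to 0.39. Next to it, chr12:11225839-11226038 was control-only at 3.39 with 12 reads. Windows with 2 regions or fewer were found for 27.4% of all genes.

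Tbx6 (chr7:126781483-126785548, plus strand) lies among closely spaced, broadly expressed genes, and its window held 18 regions, 10 shared and 8 dox-only. The dox-only share was 44.4%, beside 35.5% of all regions. As many dox-only regions or more were found for 7.32% of all genes, and for 1.46% together with no control-only region. The region giving both of its gene-end values was chr7:126779040-126780698, 1659 bp wide. It ends 785 bp before Tbx6 and covers the 3′ end of Ypel3, the gene upstream on the same strand, so its acetylation cannot be assigned to 1 of these genes. The control list had 2 intervals there, of 5.12 and 3.92, covering 753 bp. The dox list had 1 interval over the whole 1659 bp, at 19.4. The summits lay at -1575 bp (control) and -1558 bp (dox) from the Tbx6 start. Pileups were 20 and 89 reads, a log2 ratio of 1.80 after depth, with a counting interval from 1.10 to 2.50. The -log10 q was 8.66 in control and 86.2 in dox. A ratio this high was reached by 276 shared regions (0.78%).

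Between this region and the body of Tbx6, acetylation was called in dox cells alone. The dox-only region chr7:126780775-126781471 ends 12 bp before the transcript start and holds most of the promoter printed above. It had a fold enrichment of 3.81, a -log10 q of 6.18 and 21 reads. Inside the gene, chr7:126781677-126782064 had 2.62 with 12 reads and chr7:126782223-126782631 had 3.89 with 17 reads. At the depth of the control pool, the 8 dox-only regions of the window corresponded to 9.36 to 21.1 reads, where the lowest pileup called in control at uniform background was 9. With dox summits held to the weakest control call at that depth, 6 of the 8 were still called, and the region of 12 reads inside Tbx6 was not. This check used the values without counting intervals, so it was more lenient than the check at Eomes, which used lower bounds. Of the 8, 1 had a -log10 q of at least 10, the one at Tlcd3b. Over the gene body alone, Tbx6 was therefore called in dox alone, at 3.89. Dox-only regions in the window ran from 2.29 to 6.05 with a median of 2.86, against 3.51 for all dox-only regions. The strongest, chr7:126813547-126814484 at Tlcd3b, had 27 reads.

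**Figure D3:**
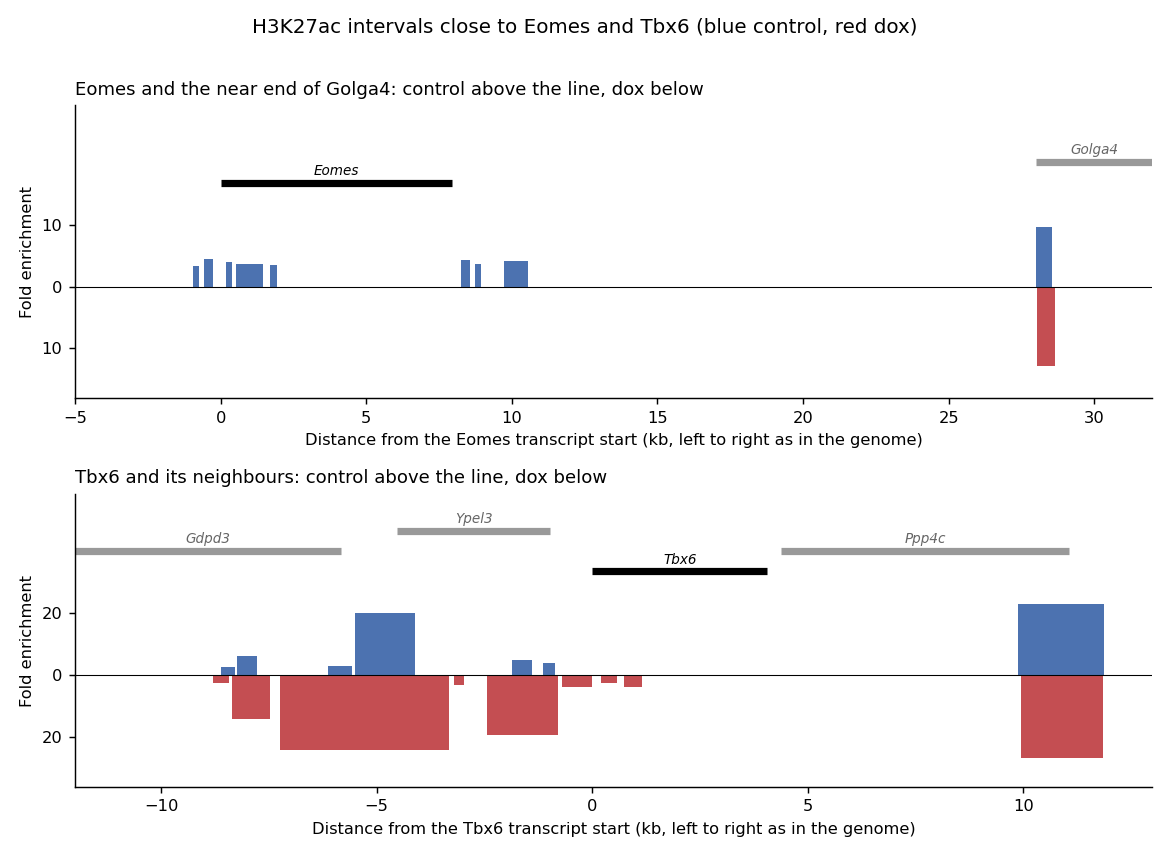
H3K27ac intervals near Eomes (upper panel) and Tbx6 (lower panel), with distance from the transcript start in kb on the x axis and fold enrichment on the y axis, control above and dox below the line. Blue bars flank and enter Eomes with none in red, and red bars reach across the Tbx6 start, where the control list has none.

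The second region higher in dox was chr7:126772676-126774009, 7474 bp upstream of Tbx6 and inside Gdpd3. It had 6.11 in control and 14.2 in dox, a ratio of 1.35. Its pileups were 35 and 66 reads and its local backgrounds 4.89 and 3.73, so that by pileup the ratio was 0.56 with an interval from -0.03 to 1.15. Only the region beside Tbx6 was thus past 2-fold on both scales.

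Active neighbours showed smaller ratios. At the start of Ypel3, chr7:126774242-126778168 had 20.1 in control and 24.0 in dox, a ratio of 0.38, while the called length was 1956 bp in control and 3927 bp in dox. At the start of Ppp4c, the catalytic subunit of protein phosphatase 4, the values were 23.2 and 26.7 and the ratio 0.33. The strongest control region of the window lay at the start of Aldoa, a glycolytic aldolase, with 25.8 in control and 18.7 in dox, a ratio of -0.33. By pileup this was -0.71, with an interval from -1.10 to -0.32. At Mapk3, the kinase ERK1, fold enrichments were 19.5 and 19.9 with a ratio of 0.17, but pileups of 82 and 170 reads gave 0.69.

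**Figure D4:**
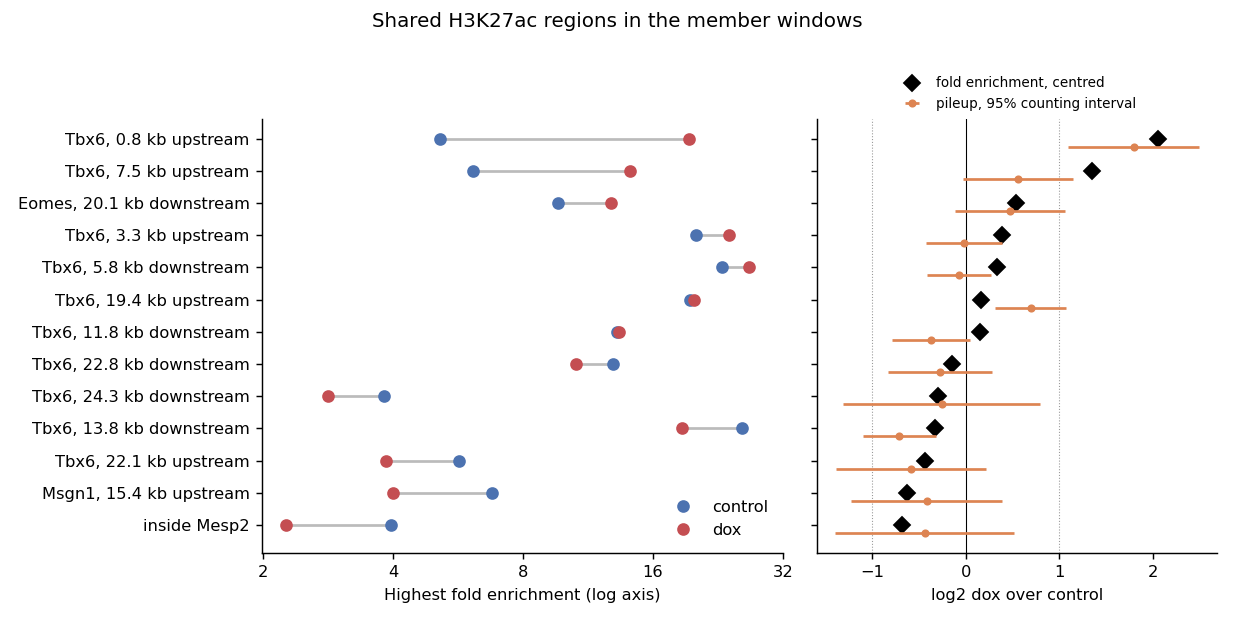
The 13 shared regions of the member windows: the left panel plots the highest fold enrichment in control and dox on a log axis, and the right panel plots the log2 ratio of dox to control by centred fold enrichment (diamonds) and by depth-scaled pileup (circles with 95% counting intervals). Pileup ratios were not centred. The region 0.8 kb upstream of Tbx6 has the highest ratio on both scales, at 2.05 and 1.80.

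Listed GLI1 sites were absent from the windows of all 5 genes, and 13.4% of all genes had one within 50000 bp. For only 5 genes, a count of 0 is near that share. Because the list is limited to replicated sites with a Gli motif, it does not show whether GLI1 bound elsewhere in these windows. The nearest site to Mesp2 was 68840 bp away, at chr7:79882271-79882371, with a -log10 q of 23.7 (median of all sites 30.8), in a dox-only region of fold enrichment 2.59. The same site was nearest to Mesp1, at 88681 bp. For Msgn1 the nearest site was 119465 bp away, with a -log10 q of 16.1, in a dox-only region of 6.91. Eomes had its nearest site at 390871 bp and Tbx6 at 2345046 bp, both outside any acetylated region.

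Of the other genes of early mesoderm, 42 were analysed (21 of primitive streak and nascent mesoderm, 21 of presomitic mesoderm and somites). An acetylated gene end was called in both lists for 13, in control alone for 6, in dox alone for 3 and in neither for 20. These are 31.0%, 14.3% and 7.14% for the first 3 classes, beside 47.9%, 2.21% and 2.96% of all genes. Besides Eomes, the control-alone genes were Nodal (8.09), a TGF-beta family ligand that induces mesoderm, Fgf8 (4.46), a growth factor of the streak, Meox1 (3.79), a somite homeobox factor, Hes7 (3.52) and Lfng (3.20), parts of the segmentation clock, and Evx1 (2.79), a streak homeobox factor. In dox alone were Foxa2 (34.0), a factor of endoderm, node and floor plate, Ripply1 (3.67), a somite repressor, and Kdr (2.82), a VEGF receptor. T, the founding T-box factor, had no region at its ends in either list.

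Among the 13 measured in both lists, 2 were higher and 3 lower in dox, beside 3.77% and 2.05% of all measured genes. The median ratio was -0.05 with 6 above 0 and 7 below. For Foxc2, a forkhead factor of paraxial mesoderm, the values were 3.57 and 17.5, a ratio of 2.42. Pdgfra, a receptor of early mesoderm, had 2.62 and 5.14, a ratio of 1.11, from different regions in the 2 lists. Lower were Tdgf1 with 17.0 and 5.12 (-1.60), Rspo3 with 8.92 and 2.89 (-1.49), and Cfc1 with 19.6 and 6.48 (-1.46). Tdgf1 and Cfc1 encode co-receptors of Nodal, and Rspo3 encodes a secreted enhancer of Wnt signalling. The median was -0.43 over the 6 nascent mesoderm genes and 0.08 over the 7 presomitic and somite genes measured in both lists.

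**Figure D5:**
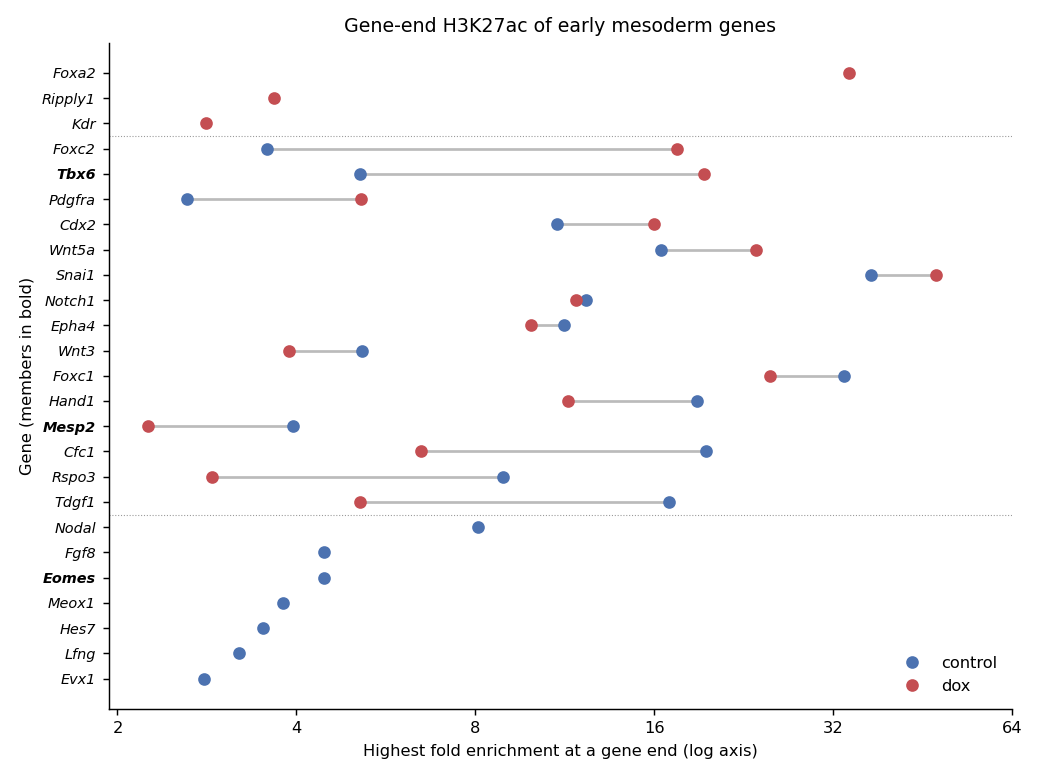
Highest fold enrichment at a gene end (log axis) in control and dox for early mesoderm genes with a gene-end region in at least 1 list, members in bold; genes above the upper dotted line were called in dox alone and those below the lower line in control alone. Tbx6 at 5.12 and 19.4 sits next to Foxc2, and Eomes at 4.46 lies among the control-alone genes with Nodal and Fgf8.

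None of the 5 members had a GLI1 site in a window of 50000 bp, but 5 genes are too few to compare shares. Of the 42 other genes, 13 (31.0%, beside 13.4% of all genes) had one. They were T, Fgf4, Wnt3a, Snai1, Pdgfra, Foxa2, Cfc1, Hand1, Smarcd3, Lfng, Cdx1, Aldh1a2 and Foxc2. Snai1, a repressor of epithelial genes, had 6 sites and Foxc2 had 4. Foxc2 and Tbx6 were thus alike in their gene-end values and differed in listed GLI1 sites nearby, 4 against 0. The Foxc2 value came from a region over Foxc2 itself. The Tbx6 value came from one that covers the 3′ end of Ypel3, and its ratio was 0.38 with gene ends of 5000 bp.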

How the data were processed

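H3K27ac, GLI1 and input were measured in control and dox cells; the H3K27ac lists of both and the GLI1 list of dox cells were used, and GLI1 in control cells and input were not analysed here. The samples of a group were pooled by the authors before peaks were called, per the file names. The submitters' processing notes name mm10, MACS2 2.1.1, SAMtools 1.5 and Bowtie2 2.3.2 without their roles. The deposited fold enrichment is a ratio of pileup to local background, the deposited significance is a −log10 p, and a second deposited significance score is −log10 q. By its name, the GLI1 list holds replicated summits with a Gli motif, so unreplicated binding and binding without the motif are not in it. GLI1 sites are the authors' 101 bp windows with a −log10 q, the lowest of which was 1.36. Whether that deposited column was adjusted is not stated.

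Intervals sharing at least 1 bp were merged into regions, and ratios were centred on the median log2 ratio of -0.13, with Python 3.11.15, pandas 2.3.3, numpy 2.4.6 and scipy 1.17.1. Library depths are unknown from the lists. Pileups that return the deposited values within 0.01 were recovered for 99.96% of control and 99.92% of dox summits, and uniform backgrounds of 2.83 and 3.63 reads gave the depth ratio. Scripts were checked on simulated data. Genes came from a GRCm38.p6 table; 1511 genes with an end where peak numbers skip were not analysed. Strand and start came from the RefSeq promoter table. No genome sequence was used, so region sequences are not printed. Named were all members, regions giving a gene-end value or past 2-fold, the strongest of each kind per locus, and list genes past 2-fold, in 1 list alone or with a GLI1 site. The members and lists were chosen with earlier results of these data known. Alternatives changed the interval threshold, window, gene end, centring and scale; the use of pileups for gene ends was chosen after seeing the data.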

Additional observations from a re-analysis of the deposited data

How the results depend on the processing

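With intervals of −log10 q of at least 10 alone, the 4 loci held 8 shared, 2 dox-only and 4 control-only regions, with 1 control-only region at Eomes, 2 dox-only at Tbx6 and 1 region higher in dox. The region beside Tbx6 then became dox-only, since its control value was below that limit. The shared region 22065 bp upstream of Tbx6 and the shared region near Msgn1 became control-only, since their dox values were below it. The Mesp intergenic region was control-only still. Windows of 10000 bp gave 5 shared, 4 dox-only and 9 control-only regions, with 8 control-only at Eomes and 4 dox-only at Tbx6. Windows of 100000 bp gave 22, 17 and 29, and 1 GLI1 site. By pileup, 1 region was higher in dox, and the median ratio of the shared regions was -0.26. Fold enrichments gave 0.15 with centring and 0.02 without. Pileup ratios were not centred, so the signs of -0.26 and 0.15 cannot be compared directly. With a gene end of 5000 bp, Tbx6 took the stronger region at the Ypel3 start and its ratio was 0.38. Holding dox summits to the lowest −log10 p of the control list at control depth gave 12 shared, 8 dox-only and 19 control-only regions, with 13 control-only at Eomes and 6 dox-only at Tbx6. No paired analysis was possible because the authors pooled the replicates before calling peaks; for the same reason no replicate could be left out.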
